A study of Canis lupus familiaris with 36 samples.

Results

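PIK3R1, DEPTOR and FBXO32 are 3 genes of the PI3K, mTOR and FOXO axis, and they were taken by their Ensembl identifiers (ENSCAFG00000007626, ENSCAFG00000000885 and ENSCAFG00000001007) from the 30424 genes of a count table. The choice went by the names of the genes, with earlier results of these data known. The RNA came from CLBL-1, a B-cell line established from a dog with diffuse large B-cell lymphoma, so that every library stems from 1 line and replicates are cultures of different passages. Cells were incubated with 1 µM ibrutinib (Ibr), an inhibitor of Bruton's tyrosine kinase (BTK), with 5 µM AS-605240 (AS), an inhibitor of the gamma catalytic subunit of PI3K, with both (Ibr + AS), or with dimethyl sulfoxide (DMSO) alone. Both inhibitors were dissolved in DMSO, so all 12 groups carry the solvent. The DMSO control held as much solvent as the Ibr + AS group, and the paper states no such match for the single inhibitors. The part of the solvent in the differences between groups was not tested. Each treatment was harvested after 24, 48 and 72 h in passages p121, p126 and p128, which gives 36 libraries in 12 groups of 3. The tests left out 1 library, Ibr 72 h of passage p128, and used the other 35. The paper had discarded that library as an outlier in clustering and principal component analysis.

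Phosphoinositide 3-kinase (PI3K) makes the membrane lipid that recruits BTK and the kinase AKT after the B-cell receptor is engaged. AKT passes the signal on to mTOR, the kinase that couples growth to nutrients, and it keeps the FOXO transcription factors out of the nucleus. PIK3R1 encodes a regulatory subunit that binds, stabilises and restrains the class IA catalytic subunits of PI3K. The gamma catalytic subunit, the target of AS, is known to pair with other regulatory subunits. DEPTOR encodes a protein that binds mTOR and lowers the activity of both mTOR complexes. FBXO32, also called atrogin-1, encodes the substrate-binding F-box subunit of a ubiquitin ligase and is known in muscle as a target of FOXO factors.

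Levels are given as CPM, the reads of a gene over all reads on genes of its library after scaling of that total by edgeR's TMM factor, and they are compared within a gene and not between genes. Reads on genes per library ranged from 9941919 to 14703839 with a median of 11888025. PIK3R1 had between 501 and 1011 reads in a library, DEPTOR between 11 and 83, and FBXO32 between 3 and 49. The exact 95% Poisson interval of the 3 FBXO32 reads in DMSO 48 h of passage p126 runs from 0.619 to 8.77 reads, and that of the 11 DEPTOR reads in AS 72 h of passage p121 from 5.49 to 19.7. These intervals cover counting error only. Of 17 marker symbols of B, T and NK, and myeloid cells, 5 could be paired with an identifier. The B-cell marker TNFRSF13C was at 70.6 to 305 CPM, the T and NK cell markers CD226 and IL2RB together reached at most 0.675 CPM, and of the myeloid markers TREM2 reached at most 0.0926 CPM whereas LYZ was at 65.5 to 311 CPM.

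**Figure D1:**
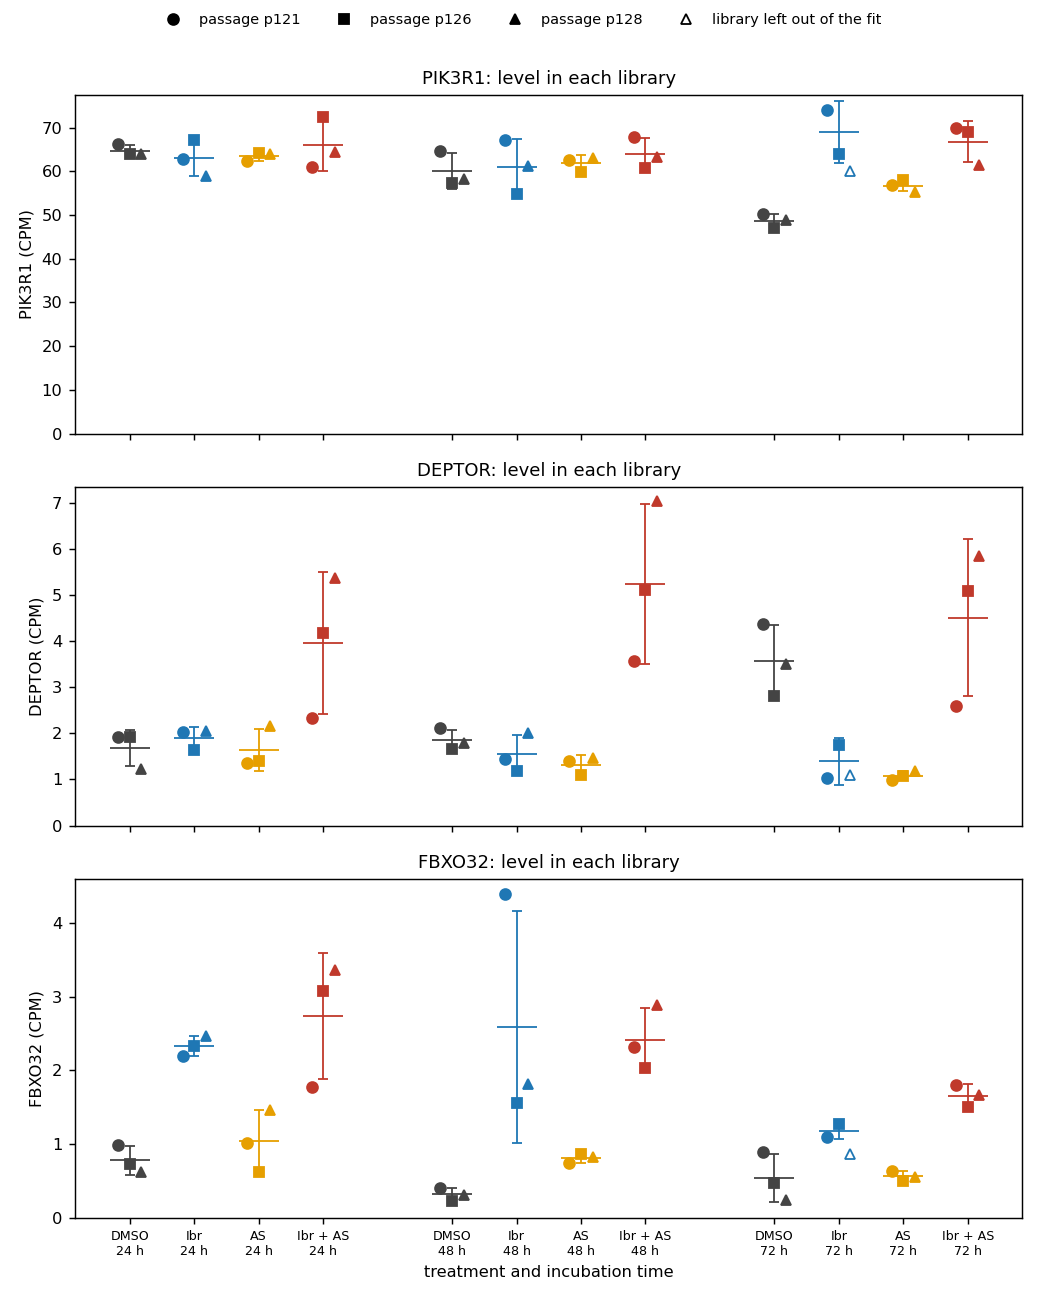
Level of PIK3R1, DEPTOR and FBXO32 in CPM (vertical axes, from 0) in each library, by treatment and incubation time. Each point is 1 library, its shape gives the passage, the horizontal line and bar are the mean and SD of the libraries in the fit, and the open triangle is the library left out. PIK3R1 in DMSO falls to 46.9 to 50.1 CPM at 72 h, DEPTOR is high with Ibr + AS at each time and with DMSO at 72 h, and FBXO32 is high with Ibr and Ibr + AS at 24 and 48 h.

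In each comparison, a gene passed when its Benjamini-Hochberg adjusted p-value from edgeR was at most 0.05, and it was a differentially expressed gene (DEG) when its log2 fold-change (log2 FC) was also above 1 or below -1. The 9 comparisons of a treatment with DMSO share their DMSO libraries within an incubation time. With Ibr, 1 of the 3 genes passed at 24 h (9.46% of the 18670 genes tested passed), 1 at 48 h (10.7%) and 2 at 72 h (18.2%). With AS, edgeR passed 0 of the 3 at 24 h (2.45% of all genes) and 0 at 48 h (3.65%), and 2 at 72 h (13.7%). At 24 and 48 h with AS, 0 and 1 of them had an unadjusted p-value under 0.05, and DESeq2 passed 0 as well, with no adjusted p-value for FBXO32 at 24 h. With Ibr + AS, 2 of the 3 passed at 24 h (34.6%), 2 at 48 h (31.6%) and 2 at 72 h (29.4%). The groups did not overlap in CPM for 1, 1 and 3 of the genes with Ibr at 24, 48 and 72 h (28.2%, 22.2% and 42.4% of all genes), for 0, 2 and 2 with AS (23.3%, 20.0% and 26.5%), and for 2, 2 and 2 with Ibr + AS (40.7%, 39.8% and 34.7%). With 3 genes, these counts serve to say which gene passed where. In bulk RNA, fewer cells of a kind and less RNA per cell cannot be told apart.

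**Figure D2:**
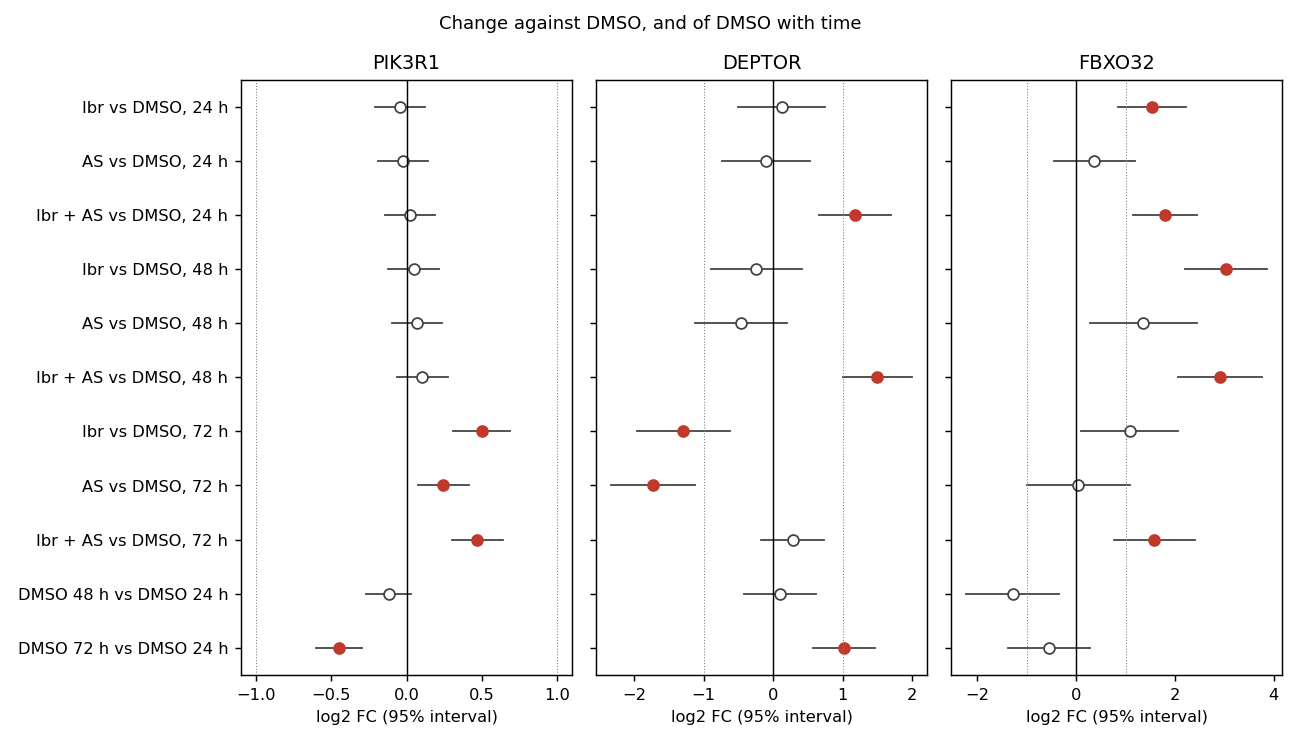
log2 FC of each gene against DMSO of the same incubation time, and of DMSO at 48 and 72 h against 24 h (horizontal axes, log2 scale, with its own range for each gene). Bars are 95% intervals, filled points passed and open points did not, and dotted lines mark 1 and -1. PIK3R1 passed with each treatment at 72 h, DEPTOR with Ibr + AS at 24 and 48 h and in the opposite direction with Ibr and AS at 72 h, and FBXO32 with Ibr or Ibr + AS in 5 comparisons.

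PIK3R1, the regulatory subunit of PI3K, did not pass with any treatment at 24 or 48 h, and at 72 h it passed as higher with all of them. In DMSO at 24 h it was at 66.3, 63.9 and 64.0 CPM in passages p121, p126 and p128. In DMSO at 48 h it was at 64.7, 57.3 and 58.3 CPM, and at 72 h at 50.1, 46.9 and 48.8 CPM. The 72 h libraries thus lay below every other DMSO library (44.8% of all genes did not overlap between 72 and 24 h), and below every treated library of any time. Against 24 h, the level in DMSO fell at 72 h by 0.45 on the log2 scale (SE 0.07, edgeR adjusted p = 3.97e-05, lower in 3 of 3 passages), and at 48 h the log2 FC was -0.12 (adjusted p = 0.425). Between 72 h and 24 h in DMSO, 2 of the 3 genes passed, PIK3R1 and DEPTOR (36.7% of 16468 genes tested), and between 48 h and 24 h edgeR passed 0 (7.48%), with 1, FBXO32, at an unadjusted p-value under 0.05. DESeq2 passed 0 at 48 h and gave FBXO32 no adjusted p-value.

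With Ibr at 72 h, PIK3R1 was at 74.0 and 63.9 CPM in passages p121 and p126, and the library left out was at 60.1 CPM. All of these lie above the 3 DMSO libraries. The log2 FC of Ibr at 72 h was 0.50 (SE 0.09, 1.41-fold, adjusted p = 9.07e-05, edgeR, 2 of 2 passages). With Ibr + AS at 72 h, PIK3R1 was at 70.0, 68.9 and 61.4 CPM, again above DMSO in each passage. Its log2 FC was 0.47 (SE 0.08, 1.39-fold, adjusted p = 1.8e-05, edgeR). With AS at 72 h the level lay between the other treatments and DMSO, at 57.0, 57.9 and 55.3 CPM. The log2 FC of AS was 0.24 (SE 0.08, 1.18-fold, adjusted p = 0.0461, edgeR), and the call was lost without any 1 of the passages (adjusted p between 0.144 and 0.316). It was also lost without the passage term, where the adjusted p was 0.0646, and under 5 other alternatives.

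Because PIK3R1 fell in DMSO between 24 and 72 h, the treated groups were set beside each other as levels. The mean with Ibr was 63.0 ± 4.17 CPM at 24 h (SD, n = 3) and 68.9 ± 7.10 at 72 h (n = 2), and with Ibr + AS 66.0 ± 5.83 and 66.8 ± 4.67 (n = 3). With AS it was 63.5 ± 1.02 at 24 h and 56.7 ± 1.33 at 72 h (n = 3), against 64.7 ± 1.35 and 48.6 ± 1.62 in DMSO. Thus DMSO and AS were lower at 72 h than at 24 h without overlap of the libraries, whereas Ibr and Ibr + AS overlapped. The effect against DMSO was larger at 72 h than at 24 h by 0.54 on the log2 scale for Ibr (SE 0.13, adjusted p = 0.00174) and by 0.45 for Ibr + AS (SE 0.12, adjusted p = 0.00317, edgeR). For AS this difference was 0.27 (SE 0.12, adjusted p = 0.171, edgeR). Without passage p121, the differences for Ibr and Ibr + AS no longer passed, at 0.42 and 0.35 on the log2 scale (adjusted p = 0.0978 and 0.0937, edgeR).

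In the order of mean levels, PIK3R1 was lowest in DMSO 72 h, followed by AS 72 h, and the gap between these groups was 5.00 times the larger of their SDs. From AS 72 h upwards, each group overlapped with the next one in the order, so that 11 of the 12 groups formed a chain from 56.7 to 68.9 CPM. Between the treatments, PIK3R1 did not pass in any comparison, with log2 differences from -0.03 to 0.25. The largest was Ibr against AS at 72 h (0.25, 95% interval from 0.07 to 0.44, adjusted p = 0.195, edgeR), and Ibr + AS against AS at 72 h followed (0.23, from 0.06 to 0.40, adjusted p = 0.0579). The second of these passed under 4 of the alternatives and the first under DESeq2.

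DEPTOR, the inhibitor of mTOR, was higher with Ibr + AS at 24 and 48 h and lower with each inhibitor alone at 72 h. In DMSO it was at 1.91, 1.92 and 1.23 CPM at 24 h in passages p121, p126 and p128, and at 2.11, 1.67 and 1.79 CPM at 48 h. At 72 h it was at 4.37, 2.81 and 3.51 CPM, above all other DMSO libraries. The rise in DMSO from 24 to 72 h had a log2 FC of 1.03 (SE 0.22, 2.04-fold, adjusted p = 0.000546, edgeR, higher in 3 of 3 passages), which makes DEPTOR a DEG of DMSO culture (6.52% of all genes were). This baseline differs between the times at which the treatments were compared.

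With Ibr + AS at 24 h, DEPTOR was at 2.33, 4.18 and 5.37 CPM, and the lowest of these, in passage p121, was still above the highest DMSO library. The log2 FC was 1.18 (SE 0.26, 2.26-fold, adjusted p = 0.000273, edgeR, 8.43% of all genes were DEGs). The ratio to DMSO within a passage was 1.22 in passage p121, 2.18 in passage p126 and 4.36 in passage p128, and without passage p128 the log2 FC was 0.76 and did not pass (adjusted p = 0.0789). At 48 h the gene was at 3.57, 5.11 and 7.04 CPM with Ibr + AS, in the same order of passages and above DMSO in each. The log2 FC was 1.50 (SE 0.25, 2.84-fold, adjusted p = 4.37e-06, edgeR, 7.85% of all genes were DEGs), and the ratios within passages were 1.69, 3.07 and 3.93. Sequencing runs were inferred from sample numbers in the header and are not named in the labels. By this inference, passage p126 with Ibr + AS at 48 h was in another run than its DMSO library. Passages p121 and p128 lay wholly within 1 inferred run each.

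At 72 h DEPTOR was at 2.59, 5.09 and 5.84 CPM with Ibr + AS, and here the libraries overlapped with those of DMSO. The log2 FC was 0.28 (95% interval from -0.17 to 0.73, adjusted p = 0.431, edgeR), with a ratio of 0.594 in passage p121 against 1.81 and 1.66 in passages p126 and p128. Passage p121 held both the highest DMSO and the lowest Ibr + AS library at this time, and without it the log2 FC was 0.79 and passed (adjusted p = 0.00821, edgeR). The group mean with Ibr + AS was 3.96 ± 1.53 CPM at 24 h, 5.24 ± 1.74 at 48 h and 4.51 ± 1.70 at 72 h (SD, n = 3), which differ by less than 1 SD. These SDs hold the differences between passages, and within each passage the level was highest at 48 h. The change of the Ibr + AS level with time was not tested by itself. The difference between the effects of Ibr + AS at 72 h and 24 h was -0.90 on the log2 scale (SE 0.35, adjusted p = 0.0517, edgeR), and it passed under 4 alternatives.

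With Ibr alone, DEPTOR was at 2.03, 1.63 and 2.05 CPM at 24 h and at 1.43, 1.19 and 2.01 CPM at 48 h, and both groups overlapped with DMSO. At 72 h it was at 1.02 and 1.75 CPM, below the DMSO libraries, and the library left out was at 1.10 CPM. The log2 FC at 72 h was -1.30 (SE 0.33, adjusted p = 0.00346, edgeR, 4.19% of all genes were DEGs). It rested on passage p121, since without it the log2 FC was -0.69 and did not pass (adjusted p = 0.277), with 1 Ibr library left that was taken to vary like the other groups. With AS alone, the levels were 1.36, 1.39 and 2.16 CPM at 24 h, 1.39, 1.09 and 1.47 CPM at 48 h, and 0.993, 1.07 and 1.19 CPM at 72 h. The AS libraries at 72 h were all below DMSO, and the log2 FC was -1.73 (SE 0.30, adjusted p = 4.28e-05, edgeR, 2.30% of all genes were DEGs, lower in 3 of 3 passages). Each passage could be left out here without loss of the call.

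The effects of the single inhibitors on DEPTOR also differed between 72 h and 24 h, by -1.42 for Ibr (SE 0.46, adjusted p = 0.0289) and by -1.63 for AS (SE 0.44, adjusted p = 0.0144, edgeR). In DMSO the level rose over this time, whereas with AS it went from 1.63 ± 0.452 to 1.09 ± 0.100 CPM (SD, n = 3) and with Ibr from 1.90 ± 0.238 (n = 3) to 1.39 ± 0.516 CPM (n = 2). Without any 1 passage the difference for Ibr did not pass (log2 values from -2.05 to -0.85, adjusted p from 0.0746 to 0.339, edgeR). For AS it did not pass without passage p126 or without passage p128 (-1.95 and -1.33, adjusted p = 0.065 and 0.272, edgeR).

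The comparison of Ibr + AS with each inhibitor asks what the other one adds. Of the 3 genes, DEPTOR alone passed against Ibr at 24, 48 and 72 h (19.9%, 20.4% and 7.19% of all genes passed), and DEPTOR and FBXO32 passed against AS (25.5%, 28.4% and 15.9%). The groups of Ibr + AS and Ibr were apart for DEPTOR at each time and also for FBXO32 at 72 h (28.3%, 27.9% and 22.2% of all genes). DEPTOR was higher with Ibr + AS than with Ibr by 1.06, 1.75 and 1.58 on the log2 scale at 24, 48 and 72 h (SE 0.26, 0.27 and 0.32, adjusted p = 0.00274, 4.39e-06 and 0.000914, edgeR). Against AS, the log2 differences were 1.28, 1.97 and 2.01 (SE 0.27, 0.27 and 0.29, adjusted p = 0.000268, 1.72e-07 and 1.52e-06, edgeR), that is 2.42-fold, 3.91-fold and 4.03-fold. DEPTOR was a DEG in these 6 comparisons, as were 3.02%, 2.83% and 1.76% of all genes against Ibr and 4.91%, 5.53% and 3.28% against AS at 24, 48 and 72 h, and it was higher with Ibr + AS in every passage. The 24 h difference from Ibr was lost without passage p126 or p128 (0.91 and 0.87, adjusted p = 0.0933 and 0.0939, edgeR).

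Departure from additivity asks whether the log2 FC of Ibr + AS differs from the sum of the log2 FCs of Ibr and AS. For DEPTOR it was 1.15 at 24 h (SE 0.41, adjusted p = 0.12), 2.21 at 48 h (SE 0.43, adjusted p = 0.000328) and 3.31 at 72 h (SE 0.44, adjusted p = 1.58e-06, edgeR). At 48 h the sum of the single effects was below 0 and the effect of Ibr + AS above it. At 72 h both single effects were DEGs downwards while Ibr + AS did not pass, and the 95% interval of the departure ran from 2.42 to 4.19. Of the 3 genes, edgeR passed 0 at 24 h (3.84% of all genes), with 1, DEPTOR, at an unadjusted p-value under 0.05 and 0 under DESeq2, 1 at 48 h (13.8%) and 1 at 72 h (8.34%), which was DEPTOR at both times. The departures at 48 and 72 h passed under each alternative, with values from 2.01 to 2.36 and from 2.95 to 3.62 when 1 passage was left out. Ibr and AS did not differ from each other in DEPTOR at the threshold, with differences of 0.22, 0.22 and 0.43 and 95% intervals from -0.42 to 0.87, from -0.49 to 0.93 and from -0.42 to 1.29.

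**Figure D3:**
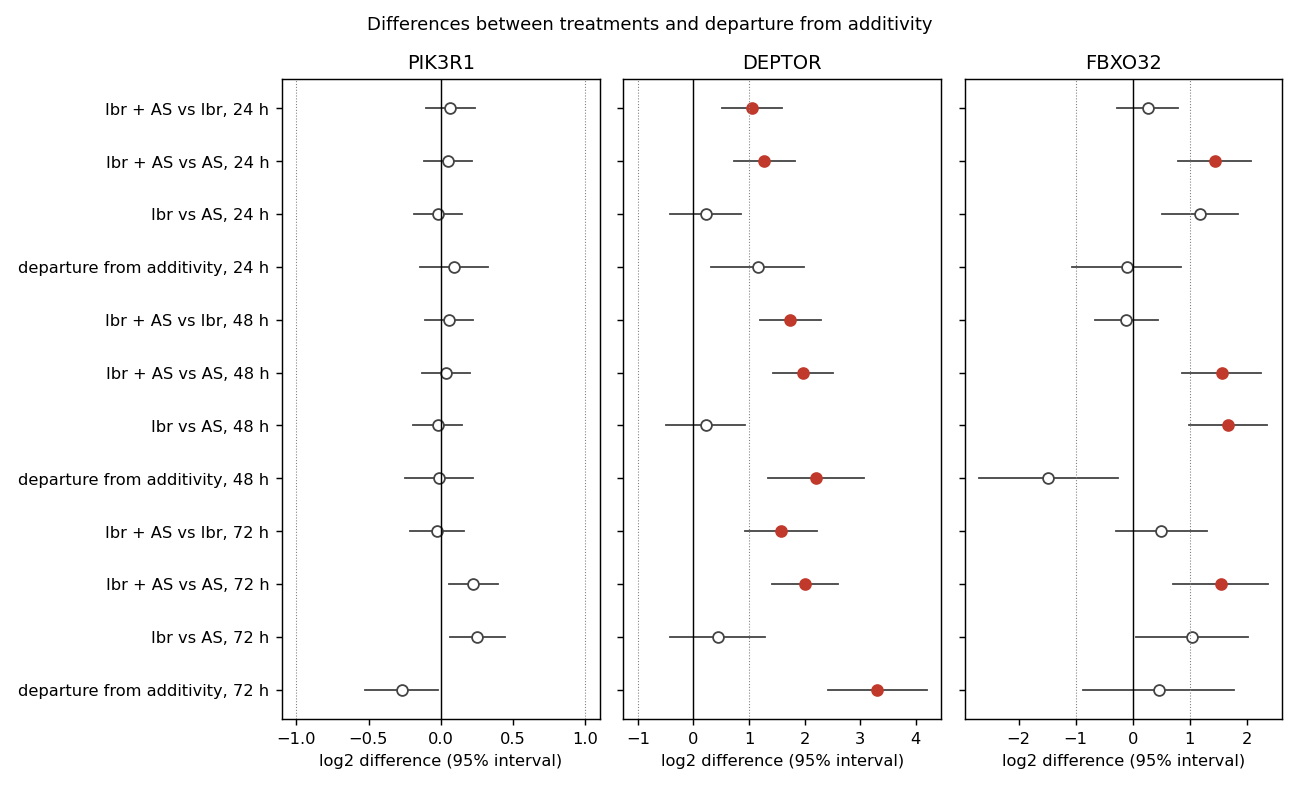
log2 differences between treatments and departure from additivity for each gene at 24, 48 and 72 h (horizontal axes, log2 scale, with its own range for each gene). Bars are 95% intervals, filled points passed and open points did not. Ibr + AS stands above both single inhibitors for DEPTOR at each time, with departures of 2.21 at 48 h and 3.31 at 72 h. FBXO32 passed for Ibr + AS against AS at each time and did not pass for Ibr + AS against Ibr.

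In the order of mean DEPTOR levels, the 7 lowest groups ran from AS 72 h (1.09 CPM) to DMSO 48 h (1.85 CPM) and each overlapped with the next, as did Ibr 24 h (1.90 CPM) with DMSO 48 h. A gap of 2.13 times the larger SD followed, and above it lay DMSO 72 h, Ibr + AS 24 h, Ibr + AS 72 h and Ibr + AS 48 h, which overlapped in turn. On another assembly (UU_Cfam_GSD_1.0), RefSeq places 2 unnamed genes over DEPTOR, and the strand setting of the counting is not stated, so reads of these genes and of DEPTOR cannot be told apart here. Its neighbours there are DSCC1, a subunit of a clamp loader that acts at the replication fork, and COL14A1, a collagen. DSCC1 did not follow DEPTOR, with a log2 FC of -0.56 for Ibr + AS at 24 h (adjusted p = 3.28e-05, edgeR) and of -0.17 at 48 h (adjusted p = 0.275). COL14A1 had a mean of 0.0434 CPM.

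FBXO32, the F-box protein known in muscle as a FOXO target, was higher with Ibr at 24 and 48 h and with Ibr + AS at each time. In DMSO it had few reads in every library, 14, 11 and 7 at 24 h, 5, 3 and 4 at 48 h, and 13, 5 and 3 at 72 h in passages p121, p126 and p128. These correspond to 0.991, 0.727 and 0.616 CPM, to 0.405, 0.228 and 0.311 CPM, and to 0.887, 0.468 and 0.245 CPM. The lowest DMSO levels were those of 48 h, which did not overlap with those of 24 h (22.6% of all genes), yet the log2 FC of -1.28 did not pass (SE 0.45, adjusted p = 0.0957, edgeR). At 72 h the level in DMSO overlapped with both other times.

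With Ibr at 24 h, FBXO32 was at 2.20, 2.33 and 2.46 CPM from 26, 30 and 24 reads, and all libraries were above DMSO. The log2 FC was 1.54 (SE 0.34, 2.91-fold, adjusted p = 0.00188, edgeR, 1.16% of all genes were DEGs). Without passage p126 or p128 it was 1.48 or 1.36 and did not pass (adjusted p = 0.0602 and 0.0576, edgeR). At 48 h it was at 4.39, 1.55 and 1.82 CPM from 49, 17 and 19 reads, against at most 5 reads in DMSO. The log2 FC was 3.04 (SE 0.42, 8.20-fold, adjusted p = 8.24e-07, edgeR, 2.04% of all genes were DEGs). Passage p121 stood above the others of its group with a ratio to DMSO of 10.9, against 6.81 and 5.84 in passages p126 and p128, and the log2 FC lay between 2.60 and 3.20 when a passage was left out. At 72 h FBXO32 was at 1.10 and 1.27 CPM with Ibr, above DMSO, and at 0.868 CPM in the library left out, which overlapped with DMSO. The log2 FC of 1.08 did not pass (95% interval from 0.10 to 2.06, adjusted p = 0.126, edgeR), and without passage p121 it was 1.95 and passed, with 1 Ibr library (adjusted p = 0.0298).

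With Ibr + AS, FBXO32 was at 1.77, 3.08 and 3.37 CPM at 24 h, at 2.32, 2.03 and 2.88 CPM at 48 h, and at 1.81, 1.50 and 1.67 CPM at 72 h. Every one of these 9 libraries was above the DMSO libraries of its time. The log2 FC was 1.80 at 24 h (SE 0.32, 3.49-fold, adjusted p = 1.45e-05), 2.92 at 48 h (SE 0.42, 7.57-fold, adjusted p = 3.56e-07) and 1.58 at 72 h (SE 0.41, 3.00-fold, adjusted p = 0.00201, edgeR). FBXO32 was a DEG at each time, as were 8.43%, 7.85% and 7.75% of all genes. Without passage p128 the value at 72 h was 1.24 and did not pass (adjusted p = 0.0622, edgeR). With AS alone, it was at 1.02, 0.618 and 1.47 CPM at 24 h, 0.738, 0.857 and 0.818 CPM at 48 h, and 0.632, 0.494 and 0.556 CPM at 72 h. The AS libraries lay above DMSO at 48 h only, where the log2 FC was 1.36 (95% interval from 0.29 to 2.44, adjusted p = 0.178, edgeR), and it was 0.37 and 0.04 at 24 and 72 h (adjusted p = 0.823 and 1).

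For FBXO32, Ibr + AS did not differ from Ibr at the threshold, with log2 differences of 0.26, -0.11 and 0.50 at 24, 48 and 72 h and 95% intervals from -0.28 to 0.80, from -0.67 to 0.44 and from -0.29 to 1.30. Against AS it was higher with Ibr + AS by 1.43, 1.56 and 1.54 (SE 0.31, 0.34 and 0.41, adjusted p = 0.000437, 0.000419 and 0.00623, edgeR). The first of these did not pass without passage p126 (1.08, adjusted p = 0.0627), nor the last without passage p126 or p128 (1.52 and 1.54, adjusted p = 0.0508 and 0.0693, edgeR). Ibr was higher than AS by 1.67 at 48 h (SE 0.34, adjusted p = 0.00334, edgeR, 0.321% of all genes were DEGs), and without passage p121 by 1.00, which did not pass (adjusted p = 0.262). At 24 and 72 h the differences of 1.17 and 1.04 did not pass (adjusted p = 0.0983 and 0.388, edgeR). Between Ibr and AS, 0, 1 and 0 of the 3 genes passed at 24, 48 and 72 h (0.578%, 1.48% and 1.99% of all genes), with 1 and 2 at an unadjusted p-value under 0.05 at 24 and 72 h. DESeq2 passed 0 at 24 h and 1, PIK3R1, at 72 h. The departure from additivity did not pass at any time and was -1.48 at 48 h (95% interval from -2.69 to -0.26, adjusted p = 0.101, edgeR).

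The order of mean FBXO32 levels had the DMSO and AS groups at its lower end, from DMSO 48 h (0.314 CPM) to AS 24 h (1.03 CPM), each overlapping with the next. Next came Ibr 72 h (1.18 CPM), which overlapped with AS 24 h, and then, without overlap, Ibr + AS 72 h (1.66 CPM). After a further gap followed Ibr 24 h (2.33 CPM), Ibr + AS 48 h (2.41 CPM), Ibr 48 h (2.59 CPM) and Ibr + AS 24 h (2.74 CPM), which overlapped. For FBXO32, the effects of Ibr, AS and Ibr + AS did not differ between 72 and 24 h at the threshold. The adjusted p-values were 0.777, 0.956 and 0.949 (edgeR). The log2 differences were -0.46, -0.33 and -0.22. Their 95% intervals ran from -1.70 to 0.78, from -1.66 to 1.01 and from -1.37 to 0.93. For PIK3R1 and DEPTOR 2 of 3 effects each passed, and each lost the call in some fit with 1 passage left out. The FBXO32 intervals hold the differences that passed for the same treatments in PIK3R1 and DEPTOR. Whether FBXO32 differs from them in this respect can therefore not be decided. Over the genes tested, 14.9%, 8.56% and 25.0% passed in the contrast of 72 with 24 h for Ibr, AS and Ibr + AS, and of the 3 genes 2, 1 and 1. The named RefSeq neighbours of FBXO32 are NTAQ1, a glutamine amidase, and KLHL38, which had a mean of 0.00473 CPM. NTAQ1 had log2 FCs of 0.24 with Ibr at 24 h (adjusted p = 0.314), 0.35 at 48 h (adjusted p = 0.0902) and 0.51 with Ibr + AS at 48 h (adjusted p = 0.00184, edgeR).

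LYZ, listed as a myeloid marker and highly expressed here, moved with some of the same treatments. The summed level of the 2 paired of 4 listed myeloid markers was 76.4 to 92.1 CPM in DMSO, 133 to 158 CPM with Ibr and 211 to 311 CPM with Ibr + AS at 24 h, against 87.4 to 97.8 CPM with AS. At 48 h it was 65.5 to 82.3, 137 to 164, 167 to 192 and 83.2 to 96.7 CPM in the same order, and at 72 h 89.2 to 115, 90.4 to 125.7, 137 to 171 and 81.2 to 93.2 CPM. TNFRSF13C, the only 1 of 7 listed B-cell markers that could be paired, was at 103 to 127 CPM in DMSO, 157 to 174 CPM with Ibr, 269 to 305 CPM with Ibr + AS and 123 to 129 CPM with AS at 24 h. In the same order it was at 102 to 108, 129 to 156, 211 to 292 and 104 to 134 CPM at 48 h, and at 70.6 to 81.1, 110 to 134, 151 to 235 and 98.5 to 116 CPM at 72 h. Its libraries with Ibr and with Ibr + AS thus lay above DMSO at each time and those with AS at 72 h. The 2 paired of 6 T and NK cell markers stayed at or below 0.675 CPM in all groups and were at 0 in every AS 48 h library, and at 48 h they ran from 0.254 to 0.675 CPM with Ibr + AS against 0 to 0.162 CPM in DMSO. These levels rest on few reads, at most 7 for CD226 and 1 for IL2RB in any library, and the difference was not tested. The part of these markers in the results on the 3 genes was not tested.

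Of 94 symbols listed for PI3K and AKT, for mTOR and for FOXO factors and targets, 17 could be paired with an identifier, which leaves 14 beside the 3 genes. They are INPP5D, PHLPP1, SGK1, AGAP2 and PFKFB2 for PI3K and AKT, RPTOR, PRR5, RPS6, TFEB, FNIP1 and PRKAB2 for mTOR, and CITED2, SOD2 and ERBB3 for FOXO. The pairs depend on which gene names were at hand, and they are no sample of the pathways. With Ibr, 2 of the 14 passed as higher and 1 as lower at 24 h (5.46% and 4.00% of all genes), 3 and 2 at 48 h (5.72% and 5.02%), and 5 and 3 at 72 h (8.60% and 9.56%). With AS, edgeR passed 0 of the 14 at 24 h (1.40% and 1.06% of all genes higher and lower) and 0 at 48 h (1.50% and 2.15%), where 3 each had an unadjusted p-value under 0.05 and DESeq2 passed 2 and 1. At 72 h with AS, 1 was higher and 1 lower (7.0% and 6.74%). With Ibr + AS, 5 passed as higher and 2 as lower at 24 h (17.4% and 17.2%), 4 and 2 at 48 h (15.9% and 15.7%), and 5 and 3 at 72 h (14.5% and 14.9%). The median log2 FC of the 14 lay between -0.05 and 0.16 in the 9 comparisons, and that of all genes tested between -0.04 and 0.03, so that the lists held changes in both directions.

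Among these 14 genes, SGK1 and PFKFB2 were those that passed with a log2 FC beyond 1 or -1. SGK1 encodes a kinase related to AKT that phosphorylates FOXO factors and is activated through mTOR complex 2. It was lower with Ibr by 0.97 at 48 h (log2 FC -0.97, SE 0.24, adjusted p = 0.00868) and by 1.38 at 72 h (-1.38, SE 0.28, adjusted p = 0.000777, edgeR). With Ibr + AS its log2 FC was -0.68 at 48 h (adjusted p = 0.0274) and -1.42 at 72 h (SE 0.24, adjusted p = 6.56e-05, edgeR), and with AS at 72 h it was -0.68 and did not pass (adjusted p = 0.0517). Without passage p126, SGK1 did not pass with Ibr at 48 and 72 h or with Ibr + AS at 48 h (-0.90, -1.29 and -0.69, adjusted p = 0.222, 0.15 and 0.226, edgeR), nor without p128 with Ibr at 48 h, whereas with AS at 72 h it passed without p121 and under 3 other alternatives. PFKFB2 encodes an enzyme that makes the activator of glycolytic phosphofructokinase and is a substrate of AKT. It was higher with Ibr at each time, with log2 FCs of 0.57, 0.80 and 1.72 (adjusted p = 0.0396, 0.00194 and 2.69e-08, edgeR), and with Ibr + AS at 48 and 72 h (0.53 and 1.29, adjusted p = 0.0247 and 1.25e-06). With AS it was 0.39 at 72 h and did not pass (adjusted p = 0.295). The call for Ibr at 24 h was lost without any 1 passage (0.41 to 0.68, adjusted p from 0.0866 to 0.364, edgeR), that for Ibr at 48 h without p128, and that for Ibr + AS at 48 h without p121 or p128.

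The other 12 stayed within a log2 FC of 1 and -1. With Ibr, RPS6 was higher at 24 and 48 h (0.42 at both, adjusted p = 0.00291 and 0.00219, edgeR). With Ibr + AS it was higher at these times too (0.66 and 0.54, adjusted p = 3.85e-07 and 1.55e-05, edgeR). RPS6 did not pass with AS or at 72 h, and its call for Ibr at 24 h was lost in a fit with 1 passage left out. PHLPP1, RPTOR and PRR5 passed at 72 h only, INPP5D at 24 and 72 h, and PRKAB2 in no comparison. TFEB, the transcription factor of lysosome genes that mTOR keeps in the cytoplasm, was higher with Ibr + AS at each time (0.34, 0.47 and 0.66, adjusted p = 0.000566, 8.07e-06 and 9.41e-09, edgeR) with Ibr at 48 h (0.26, adjusted p = 0.0281, lost without any 1 passage), and with each single inhibitor at 72 h, where the call for AS was lost without p128 (adjusted p = 0.0904, edgeR). AGAP2, a GTPase that enhances PI3K activity, passed with Ibr + AS at each time (0.70, 0.75 and 0.59, adjusted p at most 1.25e-05, edgeR) and not with Ibr or AS. SOD2, a mitochondrial superoxide dismutase listed as a FOXO target, was lower with Ibr + AS at 24 and 48 h (-0.81 and -0.80, adjusted p = 2e-09 and 3.73e-09, edgeR) and with Ibr at these times (-0.36 and -0.42, adjusted p = 0.00661 and 0.00149), opposite to FBXO32. The calls for Ibr were lost without p128, and that at 24 h also without p121. The other paired genes of the FOXO list, CITED2 and ERBB3, were higher with Ibr + AS at 24 h, as FBXO32 was (0.72 and 0.49, adjusted p = 5.42e-07 and 0.00718, edgeR). The call for ERBB3 was lost without p121 or p128. At 48 and 72 h with Ibr + AS, CITED2 (0.13 and -0.06) and ERBB3 (0.31 and -0.26) did not pass, whereas FBXO32 did. CITED2 encodes a coregulator that binds CBP and p300, and ERBB3 a receptor of the EGFR family. ERBB3 was lower at 72 h with Ibr and with AS (-0.76 and -0.51, adjusted p = 0.000407 and 0.00741, edgeR), the second of which was lost without p121 or p128. FNIP1, a partner of folliculin in amino acid sensing, was lower at 72 h with Ibr (-0.63) and with Ibr + AS (-0.89, adjusted p = 0.0218 and 0.000169, edgeR), the first of which was lost without any 1 passage. Of 12 symbols for ATF4 and amino acid synthesis, 3 could be paired, and PSAT1, an enzyme of serine synthesis, passed as lower in all 9 comparisons, with log2 FCs of -1.83, -1.95 and -1.95 with Ibr, AS and Ibr + AS at 72 h (adjusted p at most 2.87e-17, edgeR). Its calls were lost for AS at 24 h without any 1 passage (adjusted p from 0.0951 to 0.239), for Ibr at 24 h without p121 or p128, and for AS at 48 h without p128. The other paired genes of this list were less uniform. SHMT2 passed as lower except with AS at 24 and 48 h. ATF4 itself passed as lower only with Ibr + AS at 48 and 72 h (-0.29 and -0.35, adjusted p = 0.0456 and 0.0147, edgeR), and both calls were lost without p126.

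**Figure D4:**
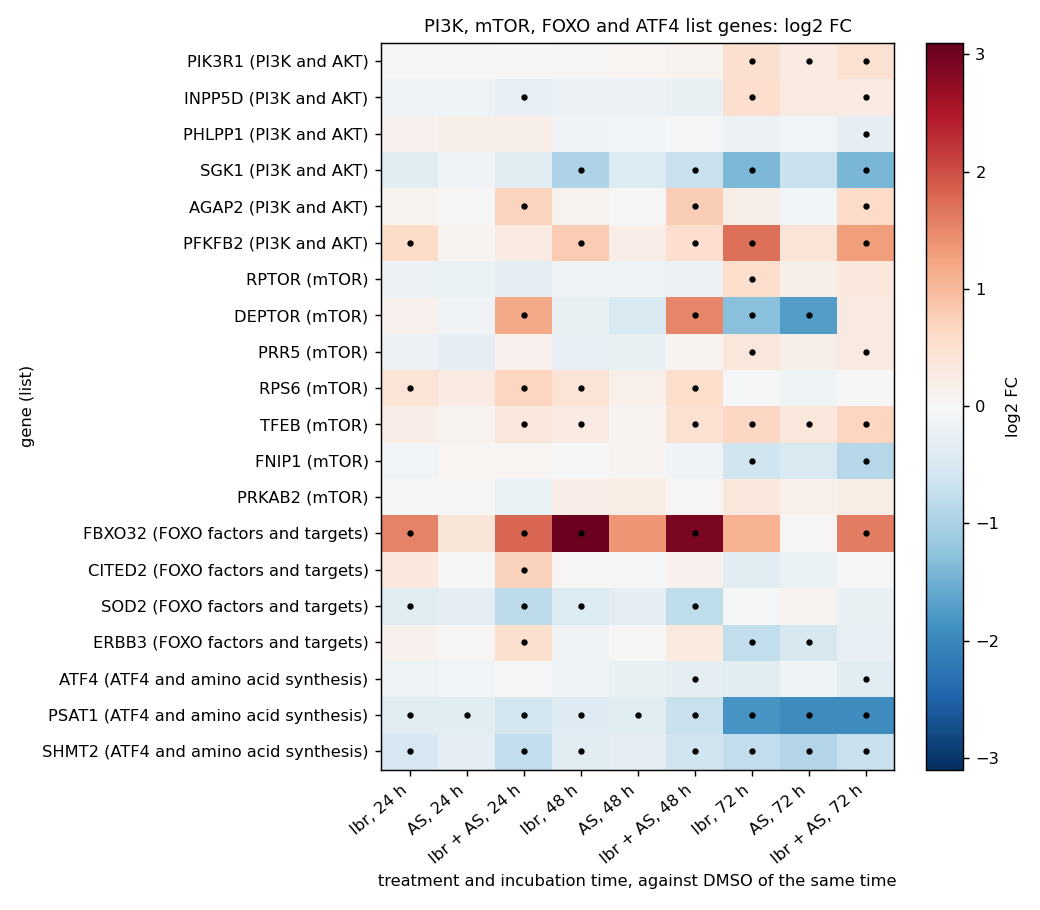
log2 FC (colour scale) of the 17 paired genes of the PI3K, mTOR and FOXO lists and the 3 of the ATF4 list (rows) against DMSO of the same incubation time (columns). Dots mark comparisons that passed. FBXO32 reaches 3.04 with Ibr at 48 h, DEPTOR changes sign between Ibr + AS at 24 and 48 h and the single inhibitors at 72 h, and PIK3R1 passes at 72 h with at most 0.50.

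Likeness to each gene was described by Pearson's r of log2 CPM over 35 libraries, which share depth, runs and treatments, among the 870 genes with a symbol and a mean of at least 1 CPM. For PIK3R1 the highest r was that of TBC1D5 (0.873), ITGA4 (0.844) and ZC3H4 (0.823). DEPTOR was most like ATAT1 (0.768), MRNIP (0.756) and DLA-DOA (0.751), and FBXO32 most like TUT7 (0.863), GOLM1 (0.838) and ZDHHC14 (0.835). Most genes of the table have no symbol here, and over all 10784 genes at that level 0, 28 and 7 had a higher r with PIK3R1, DEPTOR and FBXO32 than the first gene named. Among the 3 genes themselves, r was 0.53 for PIK3R1 and FBXO32, 0.39 for DEPTOR and FBXO32, and -0.03 for PIK3R1 and DEPTOR.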

How the data were processed

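Poly-A RNA of CLBL-1 cells was sequenced as single-end reads of 75 bases. The authors joined sequencing lanes, aligned with STAR 2.7.5a to CanFam3.1 under the Ensembl annotation, and deposited raw counts per gene in 1 table. The strand column of STAR is not given in the sources used here. The table held 0 columns without a sample and 0 rows without a gene. Groups, times and passages were taken from the labels. The library DMSO 24 h replicate 3 has passage p126 in its title and p128 in its passage field, and p128 was used. Sample numbers in the header part the libraries into 2 sequencing runs of 18, which is an inference.

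The tests used edgeR 4.0.16 under R 4.3.3 (genes whose reads sum to 2 or more, TMM factors, robust quasi-likelihood test with the current method, legacy off, group and passage as terms), over 35 libraries for treatments and 9 for DMSO over time. The procedure was run on simulated data, and the current method was chosen over the earlier one after that run. Its error rates are not given here. p-values were adjusted by Benjamini-Hochberg over all genes of a fit, and a gene with an adjusted p of at most 0.05 passed. The replicates are separate cultures of 1 line. Deviations from the group means had a median r of 0.115 between libraries that share a passage (187 pairs from different groups, 8102 genes) and of -0.04 between those that do not (374 pairs), and the passage term follows the study's methods. No library was identical to another, and the counts of libraries of a group differed by more than the sampling of reads gives (chi-square per degree of freedom from 1.87 to 26.9 over 36 pairs).

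The alternatives were DESeq2 1.42.0, RLE factors, filterByExpr, no filter, all 36 libraries, no passage term, only the groups compared, sequencing run as a further term, each passage left out, and the earlier quasi-likelihood method, which was added after seeing the data. The genes and lists were chosen with earlier results of these data known. Genes were named by a rule, which took the 3 genes in every comparison, the list genes that passed with a log2 FC beyond 1 or -1, and the 3 genes with the highest r. The other paired list genes, the neighbours and the markers are named outside it. Symbols came from 1059 pairs of identifier and name in the given parts of the supplementary tables, mostly of genes with low identifier numbers, without numbered reading frames. Promoter and protein sequences were not used here.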

Additional observations from a re-analysis of the deposited data

Results flagged for a closer look

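The effect of a treatment differed between conditions, by a test of the difference itself with edgeR, in 6 results. For DEPTOR, Ibr + AS departed from the sum of the single effects by 2.21 at 48 h and by 3.31 at 72 h on the log2 scale (adjusted p = 0.000328 and 1.58e-06). The effect on DEPTOR at 72 h was below that at 24 h by 1.42 for Ibr (log2 difference -1.42) and by 1.63 for AS (-1.63, adjusted p = 0.0289 and 0.0144). For PIK3R1, the effect at 72 h was above that at 24 h by 0.54 for Ibr and by 0.45 for Ibr + AS (adjusted p = 0.00174 and 0.00317, edgeR). The 72 h DMSO libraries enter each of the last 5 of these contrasts, and in DMSO PIK3R1 fell and DEPTOR rose between 24 and 72 h, so a change of the treated cells and a change of the solvent control cannot be told apart in the contrast alone. With 1 passage left out, the departures of DEPTOR ran from 2.01 to 2.36 at 48 h and from 2.95 to 3.62 at 72 h. The differences between 72 and 24 h were less stable, and each lost the call in some such fit. For DEPTOR these differences ran from -2.05 to -0.85 with Ibr and from -1.95 to -1.33 with AS. For PIK3R1 they ran from 0.42 to 0.67 with Ibr and from 0.35 to 0.50 with Ibr + AS.

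The library left out of the tests, Ibr 72 h of passage p128, held PIK3R1 at 60.1 CPM, above the DMSO libraries of 72 h (46.9 to 50.1 CPM), DEPTOR at 1.10 CPM, below them (2.81 to 4.37 CPM), and FBXO32 at 0.868 CPM, within their range (0.245 to 0.887 CPM).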

How the results depend on the processing

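Of 78 results on PIK3R1, DEPTOR and FBXO32, of which 30 passed, 59 kept their side of the threshold in every alternative run, and 40 of these also kept the sign of the log2 value. The 59 hold 17 that passed, each with its sign kept, whereas 13 that passed lost the call in some alternative. Among 926 alternative values 28 lost a call, 12 gained one and 0 reversed a called direction. For PIK3R1 with AS at 72 h the log2 FC of 0.24 lost the call with RLE factors (0.22), no filter on low counts (0.22), all 36 libraries (0.23), no replicate block (0.24), only the groups compared (0.23) and the earlier quasi-likelihood method (0.24), with adjusted p-values from 0.0646 to 0.165. The passage block changed no other call of the 3 genes. Without it, PHLPP1 with Ibr + AS at 72 h (-0.29, adjusted p = 0.0617) and ATF4 with Ibr + AS at 48 and 72 h (-0.27 and -0.34, adjusted p = 0.348 and 0.237) did not pass. PIK3R1 passed for Ibr + AS against AS at 72 h with DESeq2 (0.25), RLE factors (0.25), filterByExpr (0.24) and all 36 libraries (0.24), and for Ibr against AS at 72 h with DESeq2 (0.27). DEPTOR passed for the effect of Ibr + AS at 72 h minus that at 24 h with RLE factors (-0.92), filterByExpr (-0.89), all 36 libraries (-0.93) and the earlier method (-0.88). With only the groups compared, FBXO32 for Ibr against AS passed at 24 h (1.19) and not at 48 h (1.65). The inferred sequencing run as a further term changed no call. The causes were not tested.

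With 1 passage left out, calls changed for 15 results on the 3 genes. The log2 values then ran for PIK3R1 from 0.22 to 0.25 (AS at 72 h), 0.42 to 0.67 (Ibr, 72 h minus 24 h) and 0.35 to 0.50 (Ibr + AS, 72 h minus 24 h). For DEPTOR they ran from 0.76 to 1.53 (Ibr + AS at 24 h), -1.72 to -0.69 (Ibr at 72 h), 0.00984 to 0.79 (Ibr + AS at 72 h), 0.87 to 1.37 (Ibr + AS against Ibr at 24 h), -2.05 to -0.85 (Ibr, 72 h minus 24 h) and -1.95 to -1.33 (AS, 72 h minus 24 h). For FBXO32 they ran from 1.36 to 1.80 (Ibr at 24 h), 0.75 to 1.95 (Ibr at 72 h), 1.24 to 2.15 (Ibr + AS at 72 h), 1.08 to 1.65 and 1.52 to 1.57 (Ibr + AS against AS at 24 and 72 h) and 1.00 to 2.00 (Ibr against AS at 48 h). Such fits hold fewer libraries. The number of the 14 further list genes that passed became 5 with DESeq2 and with filterByExpr for Ibr at 24 h, 2 with DESeq2 and 1 with RLE factors and filterByExpr for AS at 24 h, 1 with DESeq2 for AS at 48 h, and 4 with DESeq2, RLE factors and filterByExpr for AS at 72 h. With 1 passage left out, this number ran for Ibr from 0 to 2, 1 to 4 and 4 to 7 at 24, 48 and 72 h, and for AS from 0 to 1 at 48 h and from 0 to 4 at 72 h. Of 1224 alternative values of single list genes, 59 lost a call, 30 gained one and 0 reversed a called direction. DEPTOR and FBXO32 rest on at most 83 and 49 reads in a library, so smaller changes than those called may not be detectable at this depth.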
